A study of Mus musculus with 6 samples.

Results

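Adhesion G protein-coupled receptors (adhesion GPCRs) are membrane-spanning proteins with a long extracellular region that binds other cells or the matrix. Most are cut during their own maturation at a juxtamembrane site, and the outer part stays attached to the part that spans the membrane and signals through G proteins. In leukocytes the best known members are F4/80, the product of Emr1 and the classical surface marker of mouse macrophages, and CD97, which is present on most blood cells. This account covers 7 of these genes, Emr1, Emr4, Cd97, Gpr56, Gpr97, Lphn1 and Lphn2, in splenic B cells with and without the aryl hydrocarbon receptor (AhR). They are 7 of 23420 gene rows in the count table, and 7 of the 29 rows that carry one of the adhesion GPCR symbols searched for. They were picked by name with the difference between the genotypes already known, so that difference is given here as a description with the standard error of the fit, and no test is attached to it.

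The libraries came from splenic B cells of 3 Ahr+/+ and 3 Ahr-/- mice on a C57Bl/6J background. AhR is a transcription factor that is activated by small aromatic ligands. According to the methods of the study, Ahr-/- mice carry the germ-line tm1Bra allele, so cells other than B cells lack AhR as well, and B cells were enriched from spleen with a negative-selection kit rather than sorted. All 6 cultures received the same treatment, which was 8 h with anti-IgM at 10 μg/ml, which engages the B-cell receptor, and IL-4 at 20 ng/ml, with the AhR ligand FICZ at 250 nM during the last 4 h. Cultures without these agents were not analysed here, so the values describe activated, ligand-exposed cells only.

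The 6 libraries held between 22095096 and 53648787 counts, and the 7 adhesion GPCR genes together took between 0.0170% and 0.0214% of them. All values below are normalized counts, that is counts divided by the library size relative to the mean of the 6 libraries, unless a sentence says otherwise. A count of 3, chosen here as a reference for a low level and not a limit of detection, corresponded to between 2.13 and 5.15 normalized counts. Intervals on single libraries cover counting error only. Cyp1a1, the classical AhR target, averaged 5246 ± 242 normalized counts in Ahr+/+ mice against 5.36 ± 2.20 in Ahr-/- mice (mean ± SD of 3 mice each). Ahr itself had 13175 ± 682 and 9174 ± 472, which is a partial loss of reads. B-cell markers were abundant in every library, and the summed count of 9 of them lay between 115319 and 124526 in Ahr+/+ and between 136936 and 145377 in Ahr-/- B cells. Of those 9 markers, 6 were higher and 0 lower by edgeR's quasi-likelihood test (8 higher and 0 lower at an unadjusted p under 0.05, and 5 and 0 by DESeq2). Over all 13682 genes tested, 9.79% were higher and 8.13% lower by edgeR, 17.9% in all. At an unadjusted p under 0.05 by edgeR 4021 of them passed, and DESeq2 called 2198, both in either direction. List counts by edgeR's adjusted p stand beside the shares, and the other list counts beside these totals.

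Of the 7 genes, 4 lie on mouse chromosome 8, 2 on chromosome 17 and 1 on chromosome 3 (GRCm38, GENCODE M21 annotation). None lies on chromosome 12, where Ahr is located. Emr1 (now Adgre1, ENSMUSG00000004730) spans chr17:57358691-57483527 on the plus strand, and its longest coding transcript has 22 exons and encodes 931 residues. Emr4 (Adgre4, ENSMUSG00000032915) lies on the same strand at chr17:55749984-55853662, 1505028 bases away from it. Cd97 (Adgre5, ENSMUSG00000002885) spans chr8:83723251-83741326 on the minus strand. Its nearest coding neighbour on one side is Lphn1 (Adgrl1, ENSMUSG00000013033), at chr8:83900105-83941954 on the plus strand and 158778 bases apart. Gpr56 (Adgrg1, ENSMUSG00000031785) at chr8:94974751-95014217 and Gpr97 (Adgrg3, ENSMUSG00000060470) at chr8:95017692-95045250 stand on the plus strand in a row, separated by only 3474 bases. Lphn2 (Adgrl2, ENSMUSG00000028184) is at chr3:148815583-148990555 on the minus strand. Genes on the opposite strand overlap Emr4, Cd97, Lphn1 and Lphn2 (for Cd97 the coding gene Ddx39), and whether counting used the strand is not given in the sources used here, so if it did not, reads of these 4 genes and their partners cannot be told apart. Emr1, Gpr56 and Gpr97 overlap no other annotated gene. No 50-base window of the longest coding transcript of any of the 7 genes was found, read in the same direction, in a transcript of another gene. The opposite direction and other transcripts of the 7 genes were not searched, so the overlaps above are not covered.

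AhR with its partner ARNT binds DNA at a core of the letters GCGTG. Stretches before the start sites are shown for Gpr56 and Lphn1, which were higher in Ahr-/- B cells. That of Gpr97, just downstream of Gpr56 and not separated by genotype, is shown as well. Lphn2 was also higher, but its stretch, which holds no core, is not printed. RefSeq promoters (GRCm38.p6, 250 bases before to 50 bases after a start) were found for 5 of the 7 genes, with 6 promoters in all, for Emr4, Gpr56, Gpr97, Lphn1 and Lphn2. The core was searched on both strands, and 1 of the 6 promoters held it. That was the first Gpr56 promoter, with a match 48 bases before the start and another 6 bases after it. Over all 32851 RefSeq promoters of that length, 32.4% held at least 1 core and 11.1% held 2 or more. Below, the core is in capitals. The Gpr56 stretch is chr8:94977051-94977106, the part between annotated exons of Gpr56 transcripts that holds the core, and the other stretches are the whole 250 bases before the start, at chr8:95017442-95017691 for Gpr97 and chr8:83899848-83900097 for Lphn1, all on the plus strand and, for the last 2, outside annotated exons.
Gpr56: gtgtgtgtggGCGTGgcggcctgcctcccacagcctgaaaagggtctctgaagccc
Gpr97: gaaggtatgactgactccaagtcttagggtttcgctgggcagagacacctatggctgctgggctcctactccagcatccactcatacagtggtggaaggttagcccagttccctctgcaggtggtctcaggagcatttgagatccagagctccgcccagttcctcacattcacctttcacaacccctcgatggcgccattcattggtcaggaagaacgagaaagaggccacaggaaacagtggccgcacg
Lphn1: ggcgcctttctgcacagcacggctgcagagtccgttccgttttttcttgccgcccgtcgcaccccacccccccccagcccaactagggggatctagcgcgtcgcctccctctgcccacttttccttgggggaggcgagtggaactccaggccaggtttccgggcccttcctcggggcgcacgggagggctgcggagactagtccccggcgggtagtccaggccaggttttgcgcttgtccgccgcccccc
The Gpr97 and Lphn1 stretches hold no GCGTG, and 55.2% and 68.8% of their bases are G or C. A match is a description of letters, and its absence says nothing about binding outside the window.

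Emr1 was the member with the widest separation between the genotypes. In the Ahr+/+ libraries it had 654, 662 and 633 normalized counts, and in the Ahr-/- libraries 63.5, 63.3 and 35.6. Every Ahr-/- library was thus far below every Ahr+/+ library, with a gap of 570 normalized counts between the nearest values. The means were 650 ± 14.7 and 54.1 ± 16.1 (mean ± SD of 3 mice each), which is 12.0-fold lower in Ahr-/- B cells, and the log2 fold change was -3.60 (standard error 0.14). Emr1 was not lost, since 37, 89 and 39 reads remained, against the reference count of 3. Ahr-/- replicate 3 was the lowest library, with a 95% Poisson interval of 25.3 to 48.6 normalized counts, against 44.7 to 87.5 and 50.8 to 77.9 in replicates 1 and 2. The relative spread between mice was 2.27% in Ahr+/+ and 29.7% in Ahr-/- B cells.

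Emr4, the other EGF-module receptor of the family on chromosome 17 and known from myeloid cells, had few reads in these libraries. It stood at 2.91, 5.03 and 7.86 normalized counts in Ahr+/+ mice and at 15.4, 17.1 and 6.38 in the Ahr-/- mice. The genotypes overlapped, because Ahr-/- replicate 3 fell between the Ahr+/+ values. With 3 to 24 reads per library, the log2 fold change of 1.30 had a standard error of 0.50. Emr4 therefore did not share the direction of Emr1 in its fitted value, and it is also the member with the fewest reads in Ahr+/+ B cells.

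Cd97 encodes the receptor for the complement regulator CD55, for Thy1 and for integrins, and was by far the most abundant member. It stood at 5360, 5218 and 4669 normalized counts in Ahr+/+ mice and at 5363, 5615 and 6067 in the Ahr-/- mice. The genotypes were separated only barely, by 3.82 normalized counts between the highest Ahr+/+ and the lowest Ahr-/- library, which lies within the counting error of either (5219 to 5503 and 5177 to 5555). The means were 5082 ± 365 and 5682 ± 357 (mean ± SD of 3 mice each), and the log2 fold change was 0.16 (standard error 0.057).

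**Figure D1:**
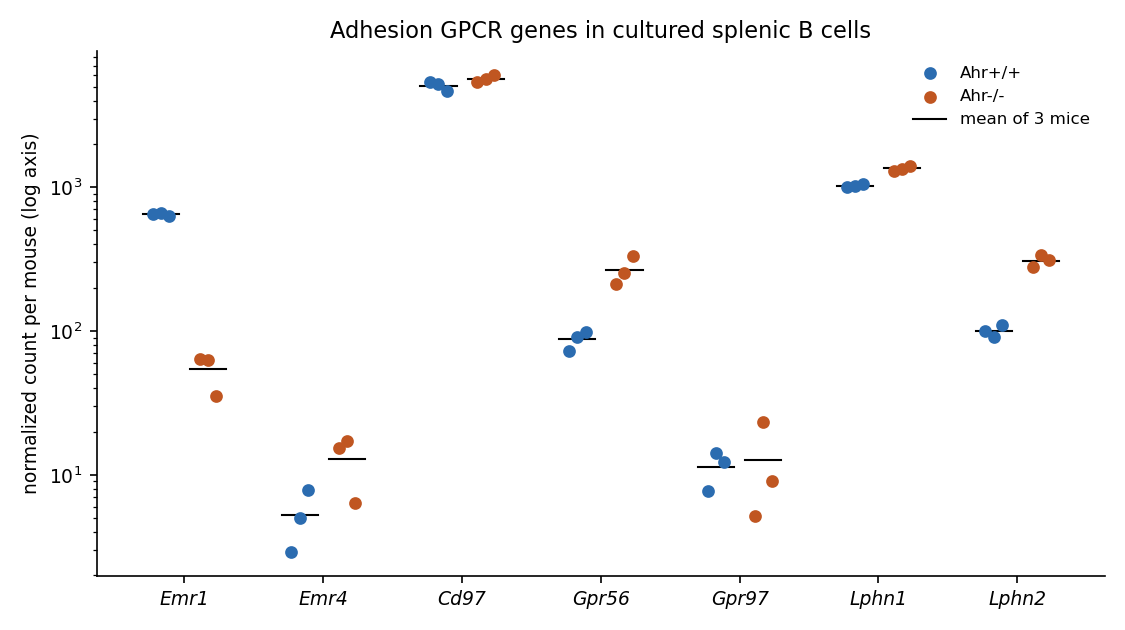
Normalized count of each of the 7 adhesion GPCR genes in each mouse on a log axis, Ahr+/+ in blue and Ahr-/- in orange, with a black line at the mean of 3 mice. Emr1 is the only member whose Ahr-/- points (35.6 to 63.5) all lie below its Ahr+/+ points (633 to 662), while Gpr56, Lphn1, Lphn2 and, narrowly, Cd97 lie above and Emr4 and Gpr97 overlap.

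Gpr56 binds transglutaminase and collagen, partners with tetraspanins and is a marker of cytotoxic lymphocytes. It stood at 72.8, 91.6 and 98.8 normalized counts in Ahr+/+ mice and at 213, 254 and 330 in the Ahr-/- mice. No values overlapped. The means were 87.7 ± 13.4 and 266 ± 59.5 (mean ± SD of 3 mice each), 3.03-fold higher in Ahr-/- B cells, or 1.62 on the log2 scale (standard error 0.17). Gpr97, its neighbour on the chromosome and a receptor known from granulocytes, stood at 7.77, 14.1 and 12.4 normalized counts in Ahr+/+ mice and at 5.15, 23.5 and 9.12 in the Ahr-/- mice. Its genotypes overlapped fully, with Ahr-/- libraries both below and above all Ahr+/+ libraries. The log2 fold change of 0.32 (standard error 0.48) depended on 1 mouse, as it was -0.56 without Ahr-/- replicate 2.

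The latrophilins Lphn1 and Lphn2 are receptors for teneurins and FLRT proteins and were named for binding a spider toxin. Lphn1 stood at 1002, 1019 and 1046 normalized counts in Ahr+/+ mice and at 1306, 1347 and 1414 in the Ahr-/- mice. The spread within each genotype was small, 2.13% and 4.02% of the mean, and the genotypes did not overlap. The means were 1022 ± 21.8 and 1356 ± 54.6 (mean ± SD of 3 mice each), a difference of 0.41 on the log2 scale (standard error 0.048). Lphn2 stood at 100, 91.6 and 110 normalized counts in Ahr+/+ mice and at 278, 336 and 310 in the Ahr-/- mice. It was 3.06-fold higher in Ahr-/- B cells, at 101 ± 9.26 and 308 ± 29.1 (mean ± SD of 3 mice each), which is 1.63 on the log2 scale (standard error 0.12), and the genotypes did not overlap. Lphn1 and Lphn2 thus went the same way, Lphn2 by the larger factor from the lower level.

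All 7 genes passed the minimum of 10 counts over the 6 libraries. Values of both genotypes were fully apart for 5 of the 7 genes, and for 33.5% of all 13682 genes tested. Since the members were chosen on this contrast, nothing is read from that share.

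Levels of different genes were compared per length, as RPKM, which is the count scaled to library size and to the length of the longest coding transcript. In Ahr+/+ B cells the order of levels was Cd97 at 44.1 ± 3.16, Emr1 at 5.22 ± 0.118, Lphn1 at 4.64 ± 0.0988, Gpr56 at 0.631, Lphn2 at 0.432, Gpr97 at 0.122 and Emr4 at 0.0393 RPKM (mean ± SD of 3 mice). Each neighbour in that order was separated from the next in all 3 mice. In Ahr-/- B cells it was Cd97 at 49.3, Lphn1 at 6.15, Gpr56 at 1.91, Lphn2 at 1.32, Emr1 at 0.435, Gpr97 at 0.134 and Emr4 at 0.0966 RPKM, and only Gpr97 and Emr4 overlapped. Emr1 moved from rank 2 to rank 5, and its share of the summed level of the 7 genes went from 9.47% to 0.733%. The ranks were the same with coding length in place of transcript length, but Emr1 then overlapped with Lphn1 in Ahr+/+ and with Gpr97 in Ahr-/- B cells. With the union of all annotated exons, a length chosen after seeing the data, Emr1 kept ranks 2 and 5 but overlapped with Lphn2 in Ahr-/- B cells, so its separation from its neighbours there depends on the length used.

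**Figure D2:**
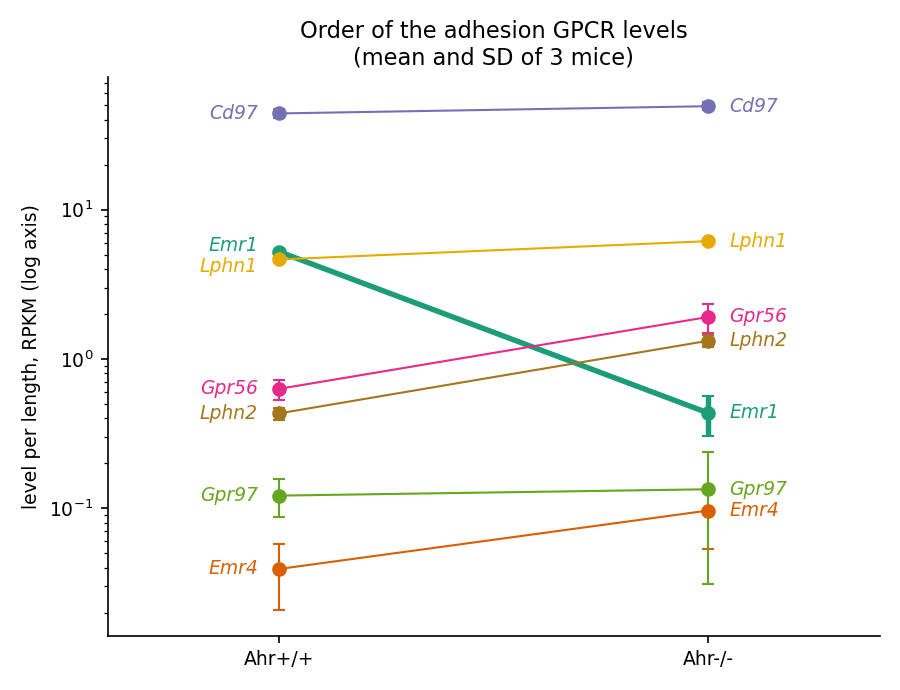
Level per length of the 7 genes in RPKM on a log axis, as mean and SD of 3 mice, in Ahr+/+ (left) and Ahr-/- (right) B cells. The Emr1 line falls from 5.22 to 0.435 RPKM and crosses those of Lphn1, Gpr56 and Lphn2, while Cd97 stays the highest in both genotypes.

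RNA of the whole culture was sequenced, so fewer cells of a type and less RNA per cell cannot be told apart, and markers of the cells known to carry these receptors are given beside them. For Emr1 these are macrophages, monocytes and eosinophils. The summed macrophage list was 524, 708 and 617 normalized counts in Ahr+/+ and 764, 791 and 543 in Ahr-/- libraries, so the genotypes overlapped, whereas Emr1 differed 12.0-fold. Cd68 was the largest part of that sum, at 439 ± 22.4 and 391 normalized counts, which was lower without overlap but did not pass (adjusted p = 0.133, edgeR). Without Cd68 the sums were 110, 261 and 161 in Ahr+/+ and 364, 399 and 162 in Ahr-/- libraries. Of 13 tested macrophage markers, 0 were lower (1 at an unadjusted p under 0.05, and 0 by DESeq2) and 3 were higher by edgeR (5 at an unadjusted p under 0.05, and 4 by DESeq2), Mrc1, Marco and Timd4, beside 9.79% higher and 8.13% lower over all genes. Marco went from 0.995 ± 1.01 to 12.8 ± 5.69 and Timd4 from 2.32 ± 2.54 to 14.5 ± 3.17 normalized counts (mean ± SD of 3 mice each). The call on Mrc1 (5.84 ± 1.11 and 20.5 ± 11.5) was lost without any 1 of 5 libraries, all but Ahr-/- replicate 3, with an adjusted p of up to 0.207 in edgeR. Csf1r, the receptor that macrophages depend on, had 93.1 ± 38.7 and 137 normalized counts and did not pass (adjusted p = 0.269, edgeR). Cd163 had no counts in Ahr+/+ libraries.

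The monocyte list summed to between 208 and 549 in Ahr+/+ and between 345 and 878 normalized counts in Ahr-/- libraries. Of 7 tested markers, 1 was higher by edgeR (4 at an unadjusted p under 0.05, and 1 by DESeq2), beside 9.79% of all genes. It was the chemokine receptor gene Ccr2 (58.7 ± 18.3 and 110 ± 33.5, mean ± SD of 3 mice each, adjusted p = 0.0336, edgeR). That call was lost without Ahr+/+ replicate 1 or 2 (adjusted p of 0.114 and 0.0628, edgeR) and without Ahr-/- replicate 1 or 2 (0.0765 and 0.186, edgeR). Among the Ahr-/- libraries, replicate 3 was the lowest for Emr1 and also for the macrophage, monocyte and neutrophil sums. Among the Ahr+/+ libraries, the monocyte sum varied from 208 to 549 while Emr1 stayed between 633 and 662. The part of such cells in the Emr1 values was not tested.

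Among the lists of macrophages, monocytes, neutrophils, eosinophils and conventional dendritic cells, the eosinophil list was the one whose sum was lower without overlap in Ahr-/- libraries, as Emr1 was, from between 1252 and 1464 in Ahr+/+ to between 429 and 488 normalized counts in Ahr-/- libraries. Most of it was 1 gene, Il5ra, the interleukin-5 receptor chain that some B cells also express, which went from 1229 ± 120 to 325 normalized counts (log2 fold change -1.91 ± 0.077 SE, adjusted p = 3.55e-09, edgeR). The granule protein genes Epx and Prg2 did not pass (adjusted p = 0.151 for both, edgeR). Epx had 5.49 ± 0.413 and 13.5 and Prg2 154 ± 46.5 and 109 normalized counts. Ccr3 and Siglec5 had at most 5 and 13 reads in any library.

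**Figure D3:**
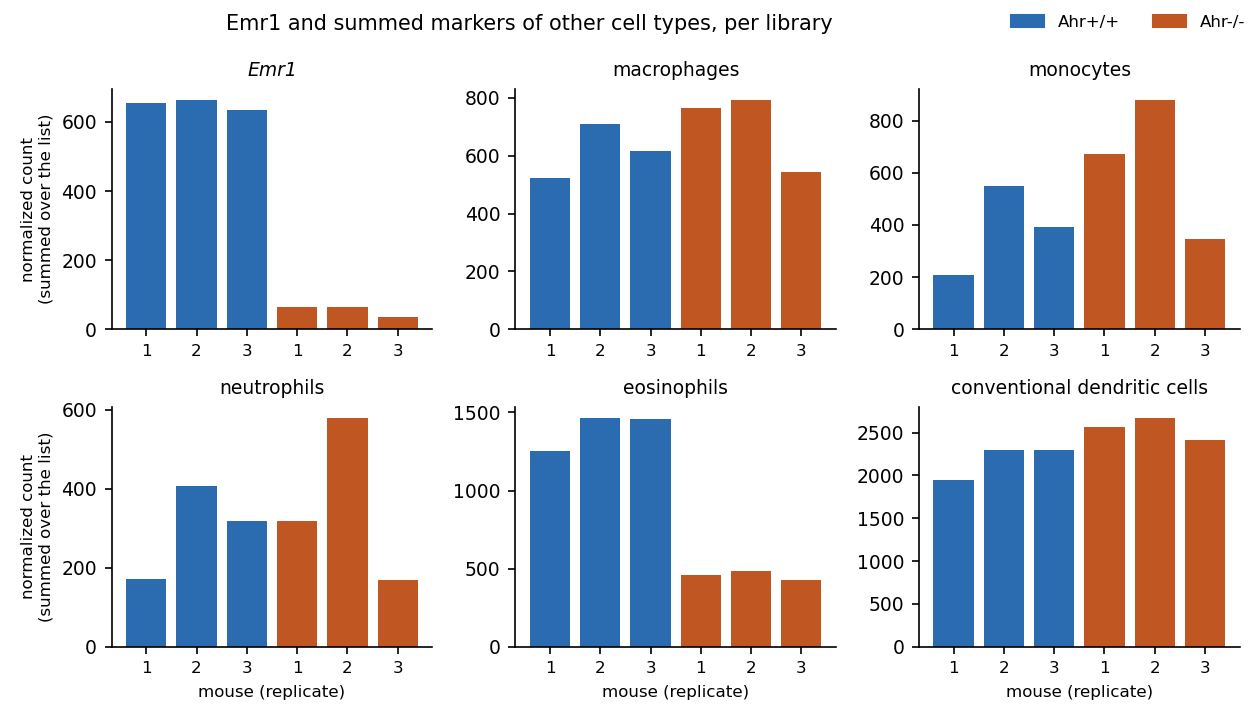
Emr1 and the summed markers of 5 myeloid cell types in normalized counts per library, Ahr+/+ replicates 1 to 3 in blue and Ahr-/- replicates 1 to 3 in orange. Emr1 drops from 633 to 662 in the blue bars to 35.6 to 63.5 in the orange bars, the macrophage, monocyte and neutrophil sums overlap between genotypes, and the eosinophil sum, mostly Il5ra, falls.

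For Gpr56 the cells in question are NK cells. Their list summed to between 398 and 507 in Ahr+/+ and between 532 and 810 normalized counts in Ahr-/- libraries, without overlap. Of 9 markers, 3 were higher by edgeR, Ncr1, Klrb1c and Gzmb, and 0 were lower (5 and 0 at an unadjusted p under 0.05, and 2 and 0 by DESeq2), beside 9.79% and 8.13% of all genes tested. Gzmb, which encodes granzyme B and is not restricted to NK cells, had 87.1 ± 7.62 and 176 ± 35.3 (adjusted p = 0.000825, edgeR), 2.02-fold higher, next to 3.03-fold for Gpr56. Ncr1 had 13.4 ± 0.271 and 25.7 ± 8.70, and Klrb1c had 27.0 ± 8.90 and 52.1 ± 10.6 normalized counts. The Ncr1 call was lost when any 1 of 5 libraries was left out (all but Ahr-/- replicate 3, adjusted p of up to 0.334, edgeR), and the Klrb1c call without Ahr+/+ replicate 1 or 3 or Ahr-/- replicate 1 or 2 (adjusted p of up to 0.122, edgeR). Gpr56 had its highest value in Ahr-/- replicate 3, at 330, where the NK sum was lowest of the 3 Ahr-/- libraries, at 532. Its part in the Gpr56 values was not tested.

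For Gpr97 the neutrophil list summed to between 171 and 406 in Ahr+/+ and between 168 and 579 normalized counts in Ahr-/- libraries. Of 9 markers, 0 passed in edgeR's test, 1 at an unadjusted p under 0.05 and 0 by DESeq2. Gpr97 and the neutrophil sum were both highest in Ahr-/- replicate 2, at 23.5 and 579. For the latrophilins, the endothelial and stromal list had Cldn5 and Col3a1 at 0 counts in all 6 libraries, and Cdh5, a defining gene of endothelium, at 8.57 ± 2.35 and 14.1 ± 2.18 normalized counts (adjusted p = 0.222, edgeR). Pecam1, which is also present on leukocytes, was lower, at 585 ± 47.2 and 406 (adjusted p = 0.000526, edgeR).

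For dendritic cells, which carry Emr4 and Cd97 among other cells, 5 of 8 tested conventional markers were higher and 1 lower, by edgeR and also by DESeq2, beside 9.79% and 8.13% of all genes. Their sum, mostly Sirpa, lay between 1945 and 2294 in Ahr+/+ and between 2410 and 2670 in Ahr-/- libraries. Cd209a rose from 6.50 ± 1.35 to 36.5 normalized counts (log2 fold change 2.52, adjusted p = 0.000117, edgeR), whereas Zbtb46 fell from 552 ± 23.9 to 418 (log2 fold change -0.40, adjusted p = 0.00143, edgeR). Of 9 markers of plasmacytoid dendritic cells, 7 were higher and 1 was lower by both tools, beside the same shares of all genes, 17.9% in either direction. Siglech went from 56.8 ± 4.19 to 270 normalized counts (adjusted p = 2.11e-07, edgeR). Their summed count ran the other way, from between 10792 and 11668 to between 9555 and 10212. Tcf4, the lower gene, was the largest part of it, at 7537 ± 330 and 4680 ± 226 normalized counts. Of 9 T-cell markers, Cd5 was higher and Cd3e and Cd28 were lower by edgeR (1 and 2 also by DESeq2), beside 9.79% and 8.13% of all genes, and the sums, mostly Lck, overlapped at between 6122 and 6530 and between 6165 and 7126 normalized counts. The part of these cells in the values of the 7 genes was not tested.

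Beyond the 7 genes, 24 other adhesion GPCR symbols were listed, of which 22 had a row, 5 had no counts at all and 10 reached the minimum for testing. Of these 10, 1 was higher in Ahr-/- B cells by edgeR and 0 were lower (2 and 1 at an unadjusted p under 0.05, and 0 and 0 by DESeq2), beside 9.79% and 8.13% of all genes tested, or 17.9% in either direction. Gpr126, known for its role in Schwann cells, was the one that was higher. It stood at 1.94, 4.02 and 2.25 normalized counts in Ahr+/+ mice and at 12.0, 14.2 and 6.38 in the Ahr-/- mice, or a log2 fold change of 1.95 ± 0.53 SE (adjusted p = 0.0218, edgeR). The genotypes did not overlap, but these are 2 to 20 reads per library, and the call was lost without Ahr+/+ replicate 1 or 3 or Ahr-/- replicate 2 (log2 fold changes of 1.74, 1.84 and 1.58, adjusted p = 0.0808, 0.0772 and 0.145, edgeR). The most abundant of the others was Celsr2, a planar polarity cadherin, at 163 ± 8.87 and 199 ± 27.1 (mean ± SD of 3 mice each, adjusted p = 0.155, edgeR). Celsr1 had 81.4 ± 12.4 and 77.7 ± 11.4. Gpr124 had 7.08 ± 3.86 and 2.16 ± 1.92 normalized counts (adjusted p = 0.166, edgeR). The median log2 fold change of the 10 genes was 0.31, against 0.0022 for all genes tested, but several of the 10 had under 10 reads in every library. That of the 7 members was 0.41. Since they were chosen on this contrast and include Emr1 at -3.60, nothing is read from it.

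**Figure D4:**
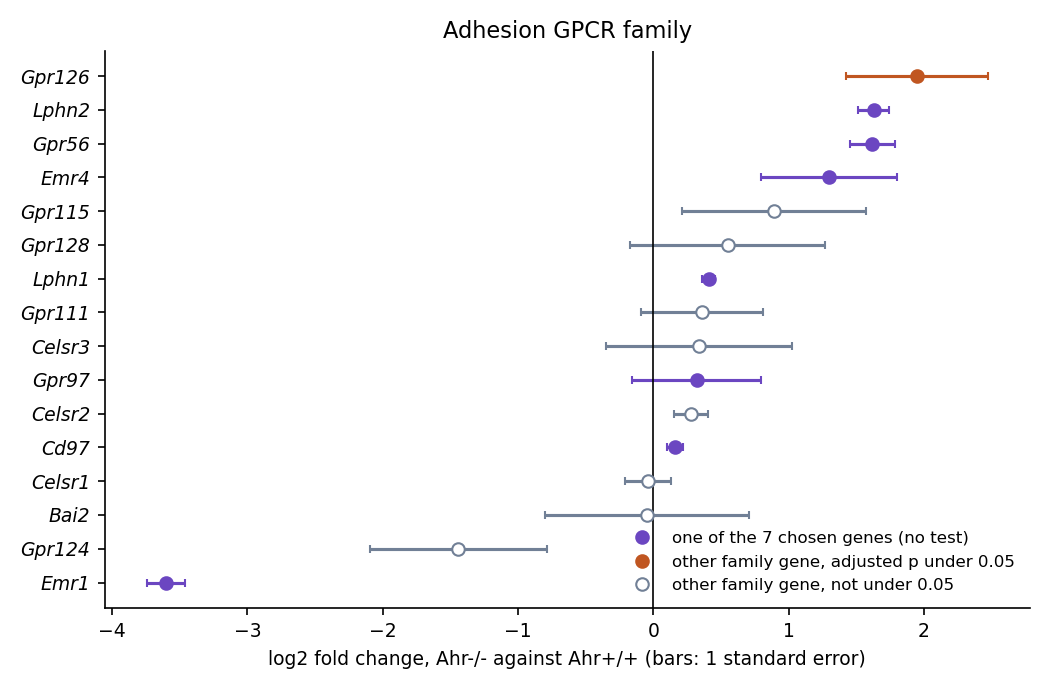
Log2 fold change of Ahr-/- against Ahr+/+ B cells for 16 of the 17 adhesion GPCR genes that reached the count minimum, with bars of 1 standard error, the 7 chosen genes in purple and the others in orange (adjusted p under 0.05) or open grey. Emr1 at -3.60 stands apart on the left, Lphn2, Gpr56 and Gpr126 lie between 1.62 and 1.95, and genes with few reads have wide bars.

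Ligands and partners of these receptors changed in both directions. Of 24 listed genes, 15 were tested, and 5 were higher and 4 lower in Ahr-/- B cells by edgeR (3 and 4 by DESeq2), beside 9.79% and 8.13% of all genes tested. Among partners of Cd97, Cd55 fell from 819 ± 120 to 625 ± 29.8 normalized counts (log2 fold change -0.39, adjusted p = 0.00899, edgeR). The integrin genes were split. Itgb1 rose from 3659 ± 73.4 to 4722 ± 161 (0.37, adjusted p = 3.13e-05, edgeR) and Itgb3 from 2169 ± 258 to 2790 ± 303 (0.35, adjusted p = 0.0125, edgeR, but 0.127 in its robust fit), whereas Itgav fell from 8101 ± 562 to 6927 ± 294 (-0.23, adjusted p = 0.00802, edgeR). Itga5 rose from 59.7 ± 12.2 to 111 ± 26.9 (0.91, adjusted p = 0.00957, edgeR), a call lost without Ahr-/- replicate 2 (0.68, adjusted p = 0.069, edgeR). Thy1 had 23.6 ± 12.9 and 17.1 ± 0.681 and did not pass (adjusted p = 0.449, edgeR).

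Both tetraspanins that associate with Gpr56 were lower, while Gpr56 itself was higher. Cd9 stood at 1282, 1440 and 1391 normalized counts in Ahr+/+ mice and at 724, 644 and 488 in the Ahr-/- mice, without overlap (log2 fold change -1.17, standard error 0.10, adjusted p = 6.26e-06, edgeR). It was the largest decrease among the tested ligands and partners. Cd81 fell from 3172 ± 157 to 2668 ± 194 (-0.25, adjusted p = 0.00663, edgeR). Tgm2, the transglutaminase gene, had 73.9 ± 8.48 and 78.3 ± 22.0 and did not pass (adjusted p = 0.92, edgeR), and the collagen gene Col3a1 was at 0 in all libraries. Among latrophilin ligands, the neurexin gene Nrxn2 was higher at a very low level, at 2.79 ± 1.61 and 11.0 ± 3.92 normalized counts (log2 fold change 1.85, adjusted p = 0.0319, edgeR). That call was lost without Ahr+/+ replicate 1 or 3 or Ahr-/- replicate 1 or 2 (0.117, 0.0716, 0.0802 and 0.0695, edgeR), and with replicates as a block (adjusted p = 0.0614, edgeR). The tested teneurin and FLRT genes did not pass.

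Several adhesion GPCRs act through G proteins and their effectors. Of 21 listed genes, 19 were tested, 2 were higher and 1 was lower by edgeR and also by DESeq2, beside 9.79% and 8.13% of all genes tested, and 16 did not pass. Gna13 and Rhoa were abundant, at 8795 ± 385 and 9119 ± 486 and at 21194 ± 687 and 20597 ± 386 normalized counts, and their adjusted p-values were 0.506 and 0.487 (edgeR). Arhgef12, the exchange factor that links such G proteins to Rhoa, fell from 1771 ± 127 to 1287 ± 23.4 (log2 fold change -0.46, adjusted p = 5.36e-05, edgeR). Rock2, a kinase that acts downstream of Rhoa, rose from 6658 ± 256 to 7440 ± 113 (0.16, adjusted p = 0.0126, edgeR) and the arrestin gene Arrb2 from 770 ± 51.5 to 941 ± 28.8 (0.28, adjusted p = 0.00523, edgeR). Without Ahr-/- replicate 3 the number that passed was 5 instead of 3. Gna14 had the largest fitted value of the list but at most 9 reads in a library, and did not pass (adjusted p = 0.0715, edgeR).

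**Figure D5:**
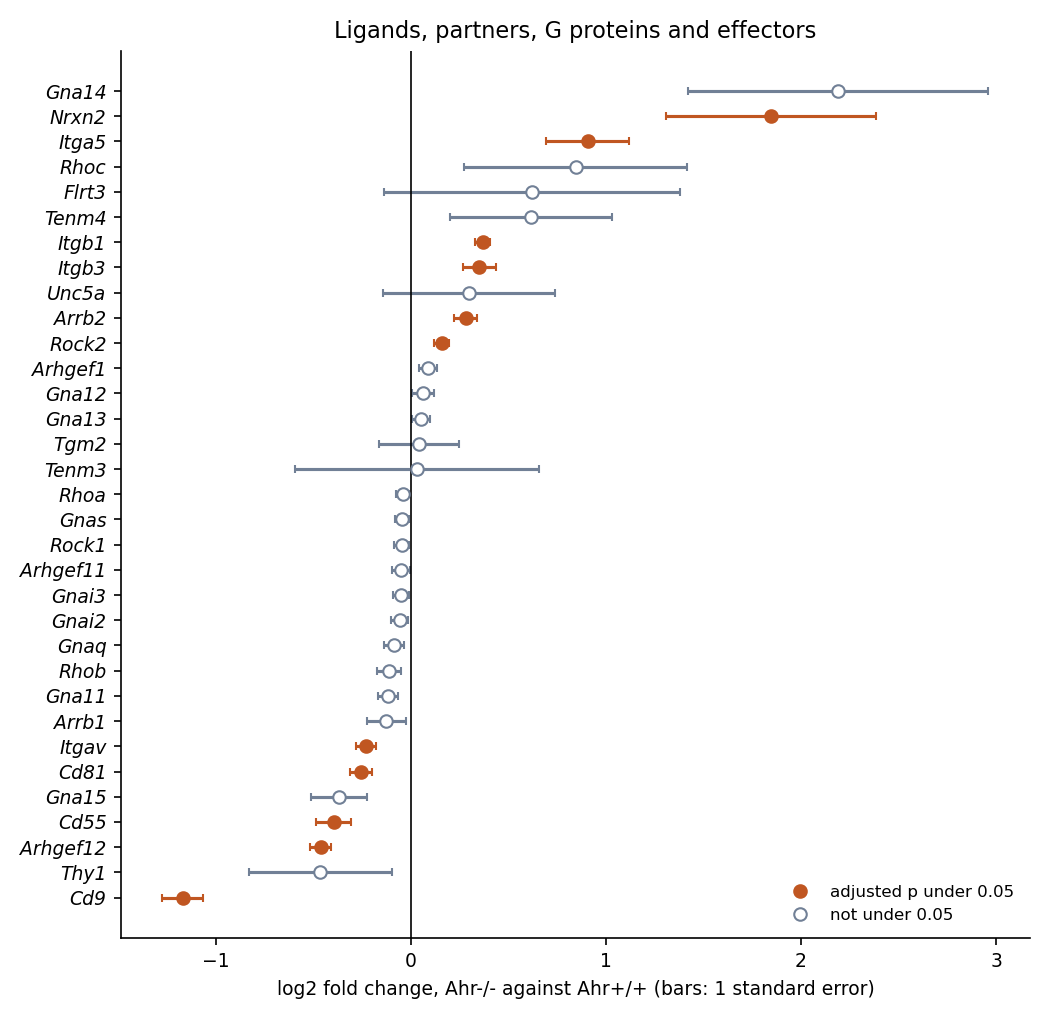
Log2 fold change of Ahr-/- against Ahr+/+ B cells for 33 of the tested ligands, partners, G proteins and effectors, with bars of 1 standard error, filled where the adjusted p was under 0.05. Cd9 at -1.17 is the lowest, Nrxn2 and Itga5 are the highest shown that passed, and most G proteins lie near 0.

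Genes whose level followed Emr1 most closely over the 6 libraries were ranked by Pearson r on log2 library-scaled counts, as a description. Of 12016 genes considered, each averaging 10 or more normalized counts in one of the genotypes, the 5 highest were Tnfrsf9, Ahrr, Add3, Rgs10 and Rnf19b. Because the libraries form 2 genotypes, any gene with a clean genotype difference has a high r with Emr1, and 450 genes were above 0.95, so the ranking carries little beyond that difference. Ahrr, which encodes the AhR repressor and is a classical AhR target, had 311, 319 and 325 reads in Ahr+/+ and 2, 3 and 0 in Ahr-/- libraries. Rgs10, a regulator of G protein signalling, had 774 ± 48.5 and 198 ± 31.6 normalized counts, 3.91-fold lower in Ahr-/- B cells (mean ± SD of 3 mice each). Tnfrsf9, which encodes the co-stimulatory receptor 4-1BB, had 385 ± 5.04 and 242 ± 11.1, 1.59-fold lower. Add3, a membrane skeleton gene, was 1.49-fold lower and Rnf19b, a ubiquitin ligase gene, 1.29-fold lower, so 4 of the 5 changed by a smaller factor than the 12.0-fold of Emr1.

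The genes beside Emr1 on chromosome 17 did not share its level or its size of change. Vav1, a signalling gene of lymphocytes 30659 bases away, had 8152 ± 76.2 and 6562 ± 351 normalized counts (mean ± SD of 3 mice each), a log2 fold change of -0.31, and Vmn2r120, 22925 bases away on the other side, had no counts. On chromosome 8, Asf1b next to Lphn1 had 449 ± 9.07 and 389 ± 8.98, below rather than above in Ahr-/- B cells. These neighbours were looked up after the values were known and no test was made of them.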

How the data were processed

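Splenic B cells of 3 Ahr+/+ and 3 Ahr-/- mice were compared, 1 library per mouse, each a separate mouse according to the study. The authors deposited raw counts of reads per gene symbol, which were used here. Stranded mRNA libraries were run on an Illumina instrument, and the submitters' processing notes name TopHat2 (version 2), HTSeq and DESeq with build mm10. Normalized counts and a table of the authors' own comparison (fold changes and p-values) were also deposited and not used.

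A gene entered the test when its reads in all 6 libraries summed to 10 or more. The test was that of edgeR 4.0.16 (R 4.3.3, limma 3.58.1), using TMM, a quasi-likelihood test of genotype with no covariate, a prior count of 0.125 and Benjamini-Hochberg adjustment over all 13682 genes, called at an adjusted p under 0.05. The script was tested on simulated data. DESeq2 1.42.0 was an alternative. Single-library intervals are exact Poisson at 95%. RPKM used effective library sizes and GENCODE M21 lengths. Library totals of 22095096 to 53648787 set the precision. Replicates of a genotype differed by more than sampling noise (chi-square per degree of freedom 3.80 to 8.80), so each counted as 1 sample. Python 3.11.15, pandas 2.3.3, scipy 1.17.1 and matplotlib 3.10.9 were used for intervals and figures.

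The 7 genes and all lists were chosen with earlier results of these data known. Named genes were the 7, every other listed family, ligand or effector gene that passed, the 5 genes most like Emr1, up to 5 abundant markers per cell type, and Ahr and Cyp1a1. Other markers, family genes and neighbours named were chosen after their values were seen. Some items of the lists are counted but not reported here by name.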

Additional observations from a re-analysis of the deposited data

How the results depend on the processing

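The log2 fold changes of Emr1, Gpr56, Lphn1, Lphn2, Cd97 and Emr4 kept their direction in every alternative that tested them. These were other scalings, other filters, DESeq2, a robust fit, a replicate block, a larger prior count and each library left out. Emr4 could not be tested with at least 10 counts in at least 3 libraries. With 1 library left out, Emr1 lay between -3.82 and -3.36, Emr4 between 0.91 and 1.67, Cd97 between 0.10 and 0.20, Gpr56 between 1.43 and 1.73, Lphn1 between 0.38 and 0.43, and Lphn2 between 1.56 and 1.69. Gpr97 changed sign, between -0.56 and 0.59, and was -0.56 without Ahr-/- replicate 2.

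At an adjusted p under 0.01 the number of genes called was 1473 instead of 2453, and it lay between 1664 and 2601 with 1 library left out. The count among other adhesion GPCRs went from 1 to 0 with DESeq2, with at least 10 counts in at least 3 libraries and at an adjusted p under 0.01, and lay between 0 and 1 with 1 library left out. That of G proteins and their effectors lay between 3 and 5, that of ligands and partners between 6 and 9, and that of markers of other cell types between 21 and 39 (main value 26, highest without Ahr-/- replicate 3).

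Libraries with the same replicate number in both genotypes had correlations of deviations of -0.14, 0.26 and -0.16. With 3 libraries per genotype these values cannot decide whether the numbers pair the mice. Only the libraries numbered 2 correlated best with their own number. With the replicate block 2303 genes were called, 2217 of them among the 2453, and Nrxn2 was the one ligand whose call was lost. The order of levels per length kept all 14 ranks with coding length, and 12 with the union of annotated exons, an alternative chosen after seeing the data. Emr4, Gpr97 and Gpr126 had at most 33 reads in any library, which limits what can be said of them.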
